A study of Bos taurus with 8 samples.

Results

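Bile acid transport and conjugation is described here through 10 genes of liver: the uptake carrier SLC10A1, the acyl-CoA synthetases SLC27A2 and SLC27A5, the conjugating enzyme BAAT, the exporters ABCB11, ABCB4, ABCC2 and ABCC3, and the paired carrier subunits SLC51A and SLC51B. Members were the probes whose gene name in the array files equals one of these symbols, which held for 8 of the 10 genes among 14952 distinct gene names, with 1 probe each. No probe carried the name ABCB4 or BAAT, so these genes have no value here. The RNA came from Holstein bull cattle, 5 to 6 months old and fitted with a rumen fistula, and was hybridised to 1-colour Agilent arrays. The 4 g group received 4 g per head of an egg-yolk immunoglobulin holding antibody against lipopolysaccharide (LPS, a bacterial cell wall component) daily through the fistula over 14 days; the 0 g group was the control without it. Both groups had hay for 11 days, then a high-grain diet for 2 days to bring on subacute ruminal acidosis (SARA), then hay again, and were sampled at the time labelled 2 days after the challenge. A 2 g dose of the same design was not analysed here. Animals 19, 20, 23 and 24 each gave 1 array per dose, so the 8 arrays form 4 pairs. The period of the Latin square in which an animal had each dose is not given in the sources used here.

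Bile acids are made from cholesterol in hepatocytes, activated to a CoA thioester, joined to glycine or taurine and pumped into bile. They return from the gut in portal blood, and hepatocytes take them up again. The carriers sit on opposite faces of the cell: SLC10A1, ABCC3 and the SLC51A-SLC51B pair face the blood, while ABCB11, ABCB4 and ABCC2 face the bile canaliculus. The roles given here are known mainly from human and rodent liver, where the bile acid receptor FXR (gene NR1H4) switches on ABCB11, SLC51A and SLC51B.

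The probe sequences below are shown because they say which stretch of each transcript was read. The SLC27A5 probe lay at the very start of its transcript (NM_001103273, from base 12, chr18:65927057-65927116, minus strand), where only 0.426% of all probes lie, and its capitals mark the single ATG in it. The SLC10A1 probe (NM_001046339, from base 834, chr10:81870873-81871966, minus strand) spans 1094 bases of genome with its 60 bases, so it crosses at least 1 intron. The ABCB11 probe lay at base 3884 of NM_001192703 (chr2:27258644-27258703, plus strand). For the SLC51A probe (NM_001025333, chr1:71434915-71434974, plus strand) and the SLC51B probe (NM_001077867, chr10:11941234-11941293, plus strand) the last 30 bases are given. Capitals there mark the letters AATAAA, which 9.51% of all probes hold on the listed strand, and a closing run of 6 A. All coordinates refer to the cattle assembly UMD 3.1, and each sequence is given as deposited, 5′ to 3′.
SLC27A5: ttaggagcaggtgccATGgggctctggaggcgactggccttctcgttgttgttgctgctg
SLC10A1: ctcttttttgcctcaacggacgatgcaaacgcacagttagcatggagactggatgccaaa
ABCB11: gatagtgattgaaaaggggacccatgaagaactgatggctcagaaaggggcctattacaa
SLC51A: gaaggtattttaagcttAATAAAcaggatg
SLC51B: caatcaaactaaaaccctgttttgAAAAAA

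The labels name liver as tissue and their extraction protocol names rumen epithelium. All 12 hepatocyte markers, albumin among them, were well above background on every array, against 4 to 6 of 12 rumen epithelium markers. Between 64.6% and 80.5% of spots per array were well above background. Dimmest were animal 19 at 4 g and animal 20 at 0 g, with 75th percentiles of signal of 125.8 and 126.3, against 218.0 to 311.7 on the other arrays. These 2 arrays were the 2 lowest of 8 for 19.7% of the 10964 tested probes with a value on every array and the 2 highest for 24.4%. The 0 g array of animal 23 held a high signal of pancreatic acinar genes. The summed signal of 12 acinar genes, on a log2 scale after subtracting the array 75th percentile, was 11.24 there. It was between 3.97 and 4.40 at 4 g and between 3.42 and 4.67 on the other 0 g arrays. In animals 23 and 24, 9 and 7 of the 12 were well above background at 4 g, and 12 and 8 at 0 g. Each array of animals 19 and 20 had 4.

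Some probes divide the arrays in ways that the animal labels do not. Of 45 probes whose 8 values fell into 2 levels at least 2 log2 units apart, 7 divided the arrays of animals 23 and 24 by dose. In these 7, both 4 g arrays of animals 23 and 24 stood at one level and both 0 g arrays at the other. The arrays of animal 19 shared a level, and so did those of animal 20. Another 31 set only the 2 dimmest arrays apart, so that the arrays of animal 19 did not share a level, nor did those of animal 20, while those of animal 23 and of animal 24 did. The immune GTPase GIMAP4 stood at −0.30 and −0.12 at 4 g, against 3.23 and 3.36 at 0 g, on the arrays labelled 23 and 24. For 0 of the 45 probes did both arrays of animal 23 stand at one level and both of animal 24 at the other. Some of the 45, OOSP1 and REC8 among them, had both arrays of every animal at a shared level. Animal 19 stood apart for OOSP1 and animal 20 for REC8. Whether the labels of any array are wrong was not tested, and the difference of each of the 8 genes is given in animals 19 and 20 alone and in animals 23 and 24 alone.

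The main comparison asked whether the antibody dose was accompanied by other levels of bile acid carriers and conjugating enzymes in the same animals. None of the 8 genes passed the test, and 0 had an unadjusted p under 0.05. With limma, adjusted over 10985 tested probes, 0 probes passed (0%), and 120 (1.09%) had an unadjusted p under 0.05. Levels are given on a log2 scale after subtracting the 75th percentile of each array, and differences are 4 g minus 0 g within an animal. Of the 8 genes, 6 had a mean difference above 0, with a median of 0.32, whereas 55.1% of all tested probes lay above 0, with a median of 0.03. The median difference of the 8 genes was −0.18 in animal 19, 0.22 in animal 20, 0.69 in animal 23 and 0.53 in animal 24. It was 0.70 in animals 23 and 24 alone and −0.03 in animals 19 and 20 alone, where 4 of the 8 genes lay above 0. Without animal 23 the median was 0.18, and without animal 24 it was 0.20. In fits with no pairing, it was 0.13 without the 0 g array of animal 23 and 0.53 without the 2 dimmest arrays. In such bulk samples, fewer cells of a type and less RNA per cell cannot be told apart.

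**Figure D1:**
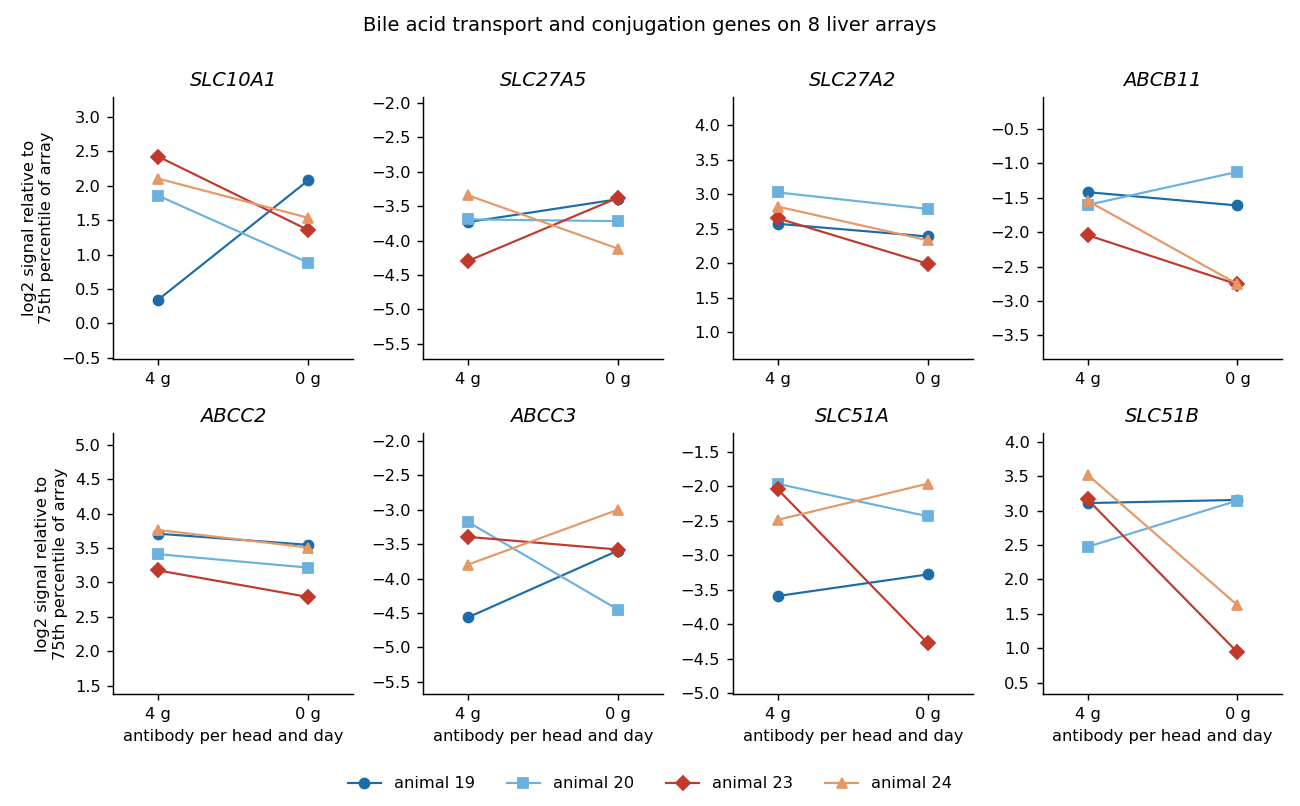
Level of each of the 8 genes (log2 signal minus the array 75th percentile) at 4 g and 0 g, with a line for each of the 4 animals. Each panel spans the same number of log2 units, and SLC51B stands far higher at 4 g than at 0 g in animals 23 and 24 but not in animals 19 and 20.

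SLC10A1, the sodium-dependent carrier that takes conjugated bile acids up from portal blood, stood at 0.35, 1.85, 2.42 and 2.10 at 4 g in animals 19, 20, 23 and 24, and at 2.08, 0.88, 1.35 and 1.53 at 0 g. The groups overlapped, and the lowest array of each group was its dimmest, animal 19 at 4 g and animal 20 at 0 g. The mean was 1.68 ± 0.92 at 4 g and 1.46 ± 0.49 at 0 g (SD, n = 4 each), a difference of 0.22 (95% CI −0.99 to 1.42, limma adjusted p = 1.00). It was −1.73 in animal 19 and between 0.57 and 1.06 in the other animals. Without animal 19 the difference was 0.87, without animal 20 −0.03 and without animal 23 −0.06. Without the 2 dimmest arrays, in a fit with no pairing, it was 0.47. In animals 23 and 24 alone it was 0.82, and in animals 19 and 20 alone −0.38. The part of array brightness in this gene was not tested.

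Activation comes next. SLC27A5, the bile acyl-CoA synthetase that readies returning bile acids for conjugation, had processed signals of 9.47 to 22.1 at 4 g and 9.59 to 26.2 at 0 g. Its levels were −3.73, −3.69, −4.30 and −3.34 at 4 g, against −3.40, −3.72, −3.38 and −4.12 at 0 g (animals 19, 20, 23 and 24). The ranges overlapped almost fully, and the animals were divided in direction, 2 higher and 2 lower at 4 g. The difference was −0.11 (95% CI −0.89 to 0.66, limma adjusted p = 1.00), and it was 0.16 without animal 23 and −0.41 without animal 24. It was −0.07 in animals 23 and 24 alone and −0.15 in animals 19 and 20 alone. As the sequence above shows, this value reads the first bases of the transcript.

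SLC27A2, a very long chain acyl-CoA synthetase of peroxisomes and endoplasmic reticulum that can also activate bile acid precursors, stood at 2.57, 3.03, 2.65 and 2.82 at 4 g in animals 19, 20, 23 and 24, against 2.39, 2.79, 1.99 and 2.33 at 0 g. Every animal was higher at 4 g, though the groups overlapped because animal 20 was high at both doses. The difference was 0.39 (95% CI −0.15 to 0.93, limma adjusted p = 1.00), that is 1.31-fold with an interval from 0.90 to 1.91. It was 0.57 in animals 23 and 24 alone and 0.21 in animals 19 and 20 alone.

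For the conjugation step itself the array holds no probe named BAAT. A probe named LOC530653 is described in the files as a bile acid CoA: amino acid N-acyltransferase, the reaction that BAAT carries out in human liver. It lies outside the rule, was chosen after its values had been seen, and is not counted among the 8 genes. It stood at −2.03, −3.61, −3.97 and −3.24 at 4 g, against −3.03, −1.98, −5.41 and −5.28 at 0 g (animals 19, 20, 23 and 24). The 2 lowest values were those of the 0 g arrays of animals 23 and 24, and the 2 highest those of the 2 dimmest arrays. The difference was 0.71 (95% CI −0.73 to 2.15, limma adjusted p = 1.00), but −0.31 in animals 19 and 20 alone. With normexp background correction, which models the local background instead of using the processed signal and here adds an offset of 50, it was 0.05. Such an offset draws the log2 differences of dim probes towards 0, and its part in this value was not tested. Processed signals of this probe ran from 6.42 to 32.1. Without the 0 g array of animal 23, in a fit with no pairing, the difference was 0.22.

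On the canalicular side, ABCB11, the pump that drives bile salts into bile, stood at −1.42, −1.61, −2.04 and −1.55 at 4 g, against −1.61, −1.13, −2.76 and −2.75 at 0 g (animals 19, 20, 23 and 24). The 4 g values lay close together, and the 0 g values were split, with animals 23 and 24 more than 1 log2 unit below animals 19 and 20. The difference was 0.41 (95% CI −0.38 to 1.195, limma adjusted p = 1.00), higher at 4 g in 3 of 4 animals. In animals 23 and 24 alone it was 0.96, and in animals 19 and 20 alone −0.14. With normexp background correction and its offset of 50 it was 0.14, and without the 0 g array of animal 23, in a fit with no pairing, 0.18. Its 2 highest values were those of the 2 dimmest arrays, as for 24.4% of tested probes.

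ABCC2, the canalicular exporter of bilirubin glucuronides and other organic anions, had levels of 3.71, 3.41, 3.17 and 3.76 at 4 g, against 3.54, 3.21, 2.79 and 3.51 at 0 g (animals 19, 20, 23 and 24). The order of the animals was nearly the same at both doses, with animal 23 lowest in each group, and every animal was slightly higher at 4 g. The difference was 0.25 (95% CI −0.26 to 0.76, limma adjusted p = 1.00), or 1.19-fold. It was 0.32 in animals 23 and 24 alone and 0.18 in animals 19 and 20 alone. Without the 0 g array of animal 23, in a fit with no pairing, it was 0.09. SLC27A2 and ABCC2 were the 2 genes of 8 with a higher level at 4 g in all 4 animals, a pattern of 3.17% of tested probes. With every animal higher at 4 g, leaving out any animal could not turn the sign of either difference. The values were then 0.30 to 0.46 for SLC27A2 and 0.20 to 0.28 for ABCC2.

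**Figure D2:**
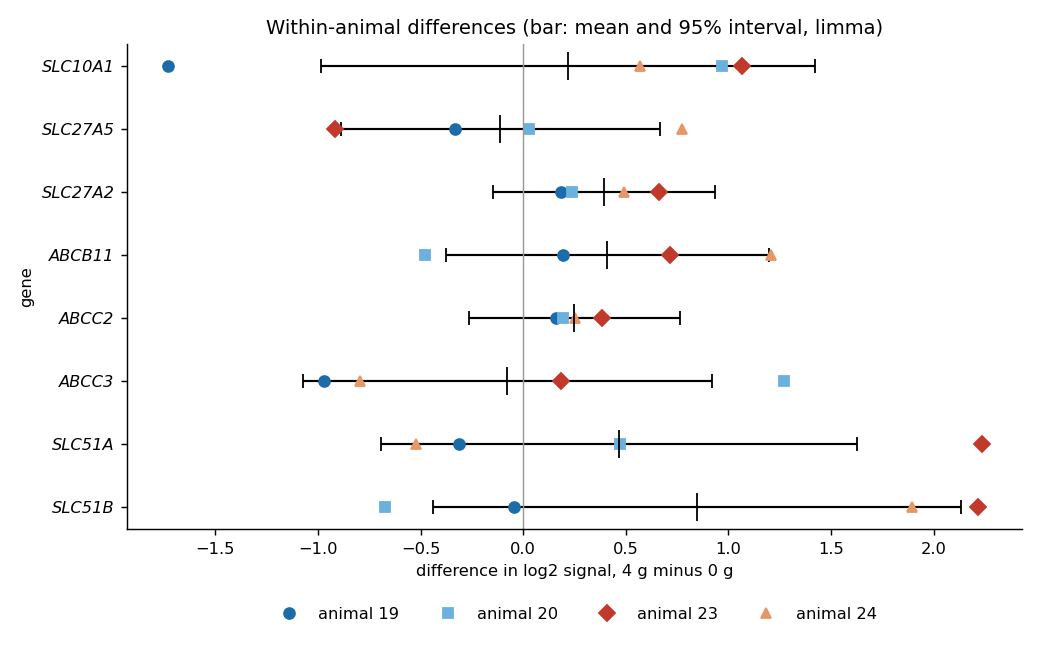
Difference in log2 signal, 4 g minus 0 g, in each animal (coloured symbols), with the limma mean as a tick and its 95% confidence interval as a bar for each of the 8 genes. All 8 intervals include 0, and those of SLC27A2 and ABCC2 are the narrowest.

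On the blood side, ABCC3, an exporter of organic anions and bile acid conjugates back into blood, had processed signals of 5.32 to 29.6 at 4 g and 5.77 to 38.8 at 0 g. Its levels were −4.56, −3.18, −3.40 and −3.80 at 4 g, against −3.59, −4.45, −3.58 and −3.00 at 0 g (animals 19, 20, 23 and 24). The lowest value of each group was again that of its dimmest array, and on the 0 g array of animal 20 the probe was not well above background. The difference was −0.08 (95% CI −1.07 to 0.92, limma adjusted p = 1.00). It was 0.22 without animal 19, −0.53 without animal 20, −0.16 without animal 23 and 0.16 without animal 24. It was −0.31 in animals 23 and 24 alone and 0.15 in animals 19 and 20 alone. SLC10A1 and ABCC3 were the 2 genes of 8 with the 2 dimmest arrays lowest, against 19.7% of tested probes.

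SLC51A and SLC51B encode the subunits of a facilitated carrier that releases bile acids into blood, and both are needed for a working carrier at the membrane. SLC51A, the larger subunit, stood at −3.59, −1.97, −2.05 and −2.49 at 4 g, against −3.28, −2.44, −4.28 and −1.96 at 0 g (animals 19, 20, 23 and 24). A single array, the 0 g array of animal 23 with the high acinar signal, lay lowest, and animal 19 was low at both doses. The difference was 0.47 (95% CI −0.69 to 1.62, limma adjusted p = 1.00), and without animal 23 it was −0.12. In fits with no pairing, it was 0.04 without the 0 g array of animal 23 alone and 1.01 without the 2 dimmest arrays. It was 0.86 in animals 23 and 24 alone and 0.08 in animals 19 and 20 alone. With normexp background correction and its offset of 50 it was 0.08.

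SLC51B, the smaller subunit, had the highest mean difference of the 8 genes. It stood at 3.11, 2.47, 3.16 and 3.52 at 4 g, against 3.15, 3.14, 0.94 and 1.63 at 0 g (animals 19, 20, 23 and 24). The 4 g values and the 0 g values of animals 19 and 20 formed a single range, and the 0 g arrays of animals 23 and 24 lay below it. The mean was 3.07 ± 0.43 at 4 g and 2.22 ± 1.11 at 0 g (SD, n = 4 each), a difference of 0.85 (95% CI −0.44 to 2.13, limma adjusted p = 1.00), that is 1.80-fold with an interval from 0.74 to 4.39. It was 1.35 without animal 20, 0.39 without animal 23 and 0.50 without animal 24. Without the 0 g array of animal 23, in a fit with no pairing, it was 0.42. The difference was 2.22 in animal 23 and 1.89 in animal 24. SLC51B was the 1 gene of 8 that was higher at 4 g in animals 23 and 24 and lower in animals 19 and 20. This pattern, of 2.23% of tested probes, was chosen with results of these data known, so the share is no test. The subunits differed in opposite directions in animal 24, where SLC51A differed by −0.52, and in animal 20. There SLC51A differed by 0.47 and SLC51B by −0.67.

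The slide held animals 19 and 20 in its first row of arrays and animals 23 and 24 in its second, so the values in each pair of animals are also values within a slide row. SLC51B differed by 2.05 in the second row and by −0.36 in the first (adjusted p = 0.474 and 1.00 with limma). The difference between the rows was 2.41 (95% CI 0.96 to 3.86, unadjusted p = 0.00685 and adjusted p = 1.00 with limma). This contrast was added after the values had been seen, and 0 of 10985 probes passed it (0%), with 108 (0.983%) at an unadjusted p under 0.05. For ABCB11 the difference between the rows was 1.11 (95% CI −0.38 to 2.59) and for SLC10A1 it was 1.197 (95% CI −1.23 to 3.62), both with an adjusted p of 1.00 in the same fit. Slide row and pair of animals cannot be told apart.

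SLC51B, SLC27A2 and ABCB11 had the 0 g arrays of animals 23 and 24 as the 2 lowest of all 8, a pattern of 7.19% of tested probes, while 0 of the 8 genes had them as the 2 highest, against 3.54%. The 0 g array of animal 23 was lowest for 5 of the 8 genes, SLC51A, SLC51B, SLC27A2, ABCB11 and ABCC2, and for 15.7% of tested probes. The part of the acinar signal in these low values was not tested. These patterns of the 0 g arrays were chosen with results of these data known, so the shares are no test of the 8 genes. The groups overlapped for all 8 genes, and 0.611% of tested probes had groups that did not overlap. For 3 of the 8 genes, SLC27A2, SLC27A5 and ABCC2, the 95% interval lay within a 2-fold change either way, against 64.3% of tested probes.

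**Figure D3:**
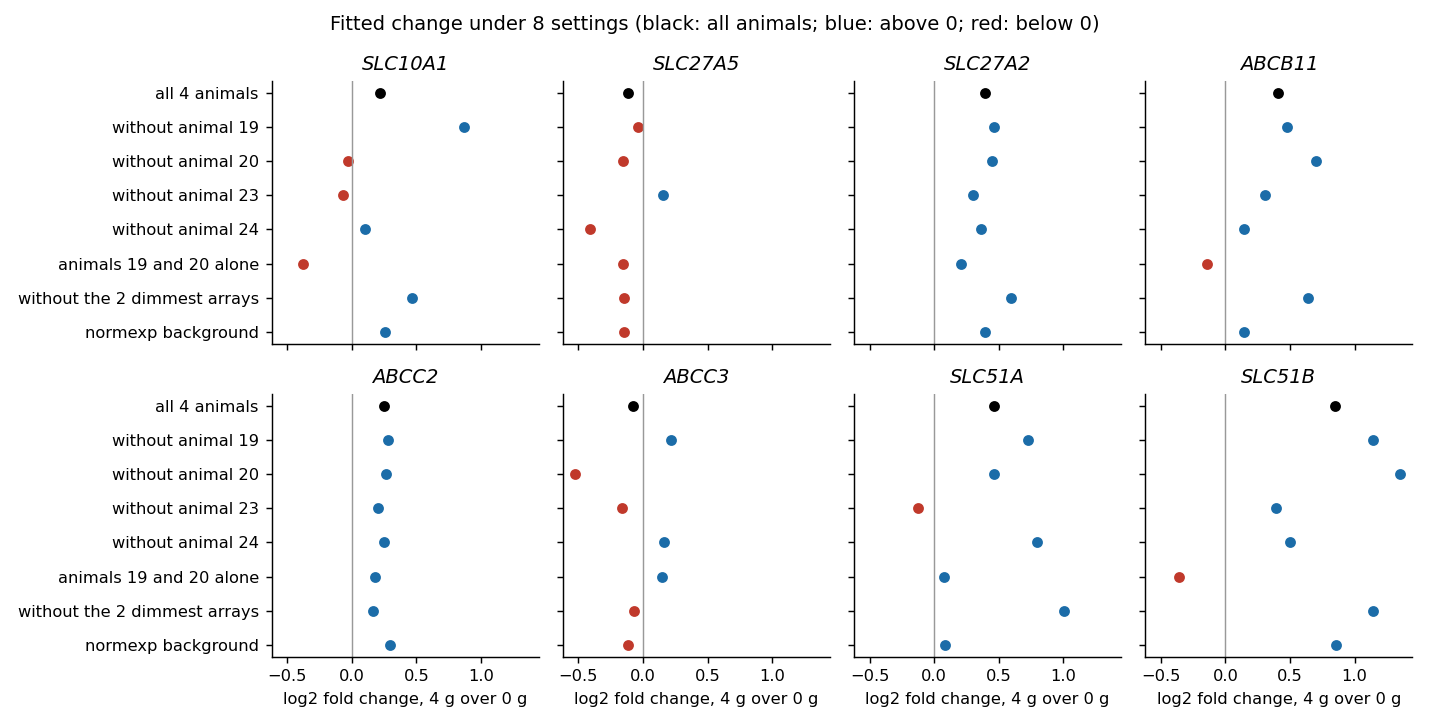
Fitted log2 fold change (4 g over 0 g) of each of the 8 genes with all 4 animals (black) and under 7 other settings (blue above 0, red below 0). SLC27A2 and ABCC2 stay above 0 in each setting drawn, while SLC51B and ABCB11 cross 0 in animals 19 and 20 alone and SLC10A1 crosses 0 in 3 settings. Leaving out whole animals could not turn SLC27A2 or ABCC2, which were higher at 4 g in every animal.

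Levels were also compared between the 4 animals, with dose in the same fit. No member passed (limma F-test, adjusted p of at least 0.985), and 0 of 10985 tested probes did (0%), with 298 (2.71%) at an unadjusted p under 0.05. The smallest unadjusted p among the 8 genes was 0.170, for ABCB11. Without animal 19, and in animals 19 and 20 alone, 1 probe passed.

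The rest of the pathway was read from lists written with earlier results of these data known. Of 17 enzymes of bile acid synthesis, 16 were on the array and 15 were tested, 10 with a mean difference above 0 and 5 below, with a median of 0.06 and 0 that passed. CYP7A1, the rate-limiting enzyme of the classic route, stood at −5.32, −3.02, −1.72 and −3.98 at 4 g, against −5.30, −3.50, −3.47 and −0.42 at 0 g (animals 19, 20, 23 and 24). It spread over more than 4 log2 units between arrays, and the largest gap within an animal was in animal 24, at −3.56. The probe was well above background on 7 of 8 arrays. The difference was −0.34 (95% CI −2.29 to 1.62, limma adjusted p = 1.00), and it was 0.74 without animal 24. CYP8B1, the sterol hydroxylase that sets the share of cholic acid, differed by −0.05 (SE 0.47), and CYP27A1, the sterol hydroxylase of side-chain oxidation, by −0.00 (SE 0.31). Both were lower at 4 g in animal 19 only, and without that animal the differences were 0.56 and 0.31.

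Of 18 regulators, 17 were on the array and 16 were tested, 8 above and 8 below 0, with a median of −0.00 and 0 that passed. The bile acid receptor gene NR1H4 stood at 0.63, −0.15, 0.28 and 0.06 at 4 g, against 0.46, −0.04, −0.35 and 0.23 at 0 g (animals 19, 20, 23 and 24). Its difference of 0.13 (95% CI −0.46 to 0.72, limma adjusted p = 1.00) lay inside the spread between animals. It was 0.63 in animal 23 and −0.17 in animal 24, the animals in which SLC51B differed most. The hepatocyte factor HNF4A differed by 0.03 (SE 0.28), the FGF19 receptor FGFR4, well above background on 5 of 8 arrays, by 0.23 (SE 0.39) and its co-receptor KLB by −0.16 (SE 0.28). No probe was named NR0B2, the FXR-induced repressor of CYP7A1, and it has no value here.

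Of 21 other carriers, 18 were on the array and 15 were tested, 11 above and 4 below 0, with a median of 0.04 and 0 that passed. ABCC4, which exports bile acids into blood and is known from rodents to increase in cholestasis, stood at −1.67, −1.65, −5.71 and −4.97 at 4 g, against −3.41, −0.45, −2.09 and −2.21 at 0 g (animals 19, 20, 23 and 24). The 4 g arrays of animals 23 and 24 were lowest, whereas for SLC51B the 0 g arrays of these animals were lowest. The difference was −1.46 (95% CI −3.48 to 0.56, limma adjusted p = 1.00), with −3.19 in animals 23 and 24 alone and 0.27 in animals 19 and 20 alone. It was −2.53 without animal 19, −0.74 without animal 23, −2.38 with array weights and −0.43 with normexp background correction and its offset of 50. The uptake carriers SLCO1B3 and SLCO2B1 differed by 0.07 (SE 0.23) and 0.29 (SE 0.34). The sterol exporter subunits ABCG5 and ABCG8 differed by −0.01 (SE 0.52) and 0.03 (SE 0.39), and both were low on the dimmest arrays. The cytosolic carrier FABP1 differed by 0.07 (SE 0.26). ATP8B1, a phospholipid flippase of the canaliculus, exceeded background clearly at 4 g in 0 animals and at 0 g in 2 animals, and was not tested.

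SLC10A5, a relative of SLC10A1, has 2 probes, and they disagree. The brighter probe stood between 0.80 and 1.31 at 4 g and between 0.75 and 1.34 at 0 g, with a difference of 0.04 (95% CI −0.54 to 0.63). The dimmer probe stood between −1.48 and 0.89 at 4 g and between −1.49 and 0.57 at 0 g, with its highest values on the dimmest arrays. Its difference was 0.34 (95% CI −1.12 to 1.80), and neither probe passed (limma adjusted p = 1.00 for each). Of the other SLC27 genes 4 of 4 were tested, 3 above and 1 below 0, with a median of 0.13 and 0 that passed.

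Summed markers of the other cell types that liver can hold overlapped between the groups, and the pancreatic sum was far higher on the 0 g array of animal 23. Among 11 measured bile duct genes, 10 exceeded background clearly on every 4 g array, and 10 or 11 did so on every 0 g array. Their summed log2 signal was 5.11, 4.89, 3.75 and 4.66 at 4 g in animals 19, 20, 23 and 24. At 0 g it was 4.92, 5.55, 4.92 and 4.32, so 2 animals were higher and 2 lower at 4 g. Of 6 Kupffer cell and macrophage genes all were well above background on every array, with sums between 6.19 and 6.62 at 4 g and between 6.24 and 6.64 at 0 g. The hepatocyte sums were 10.60, 10.46, 10.19 and 10.48 at 4 g, against 10.59, 10.61, 10.24 and 10.17 at 0 g (animals 19, 20, 23 and 24). The part of these cell types in the results was not tested.

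**Figure D4:**
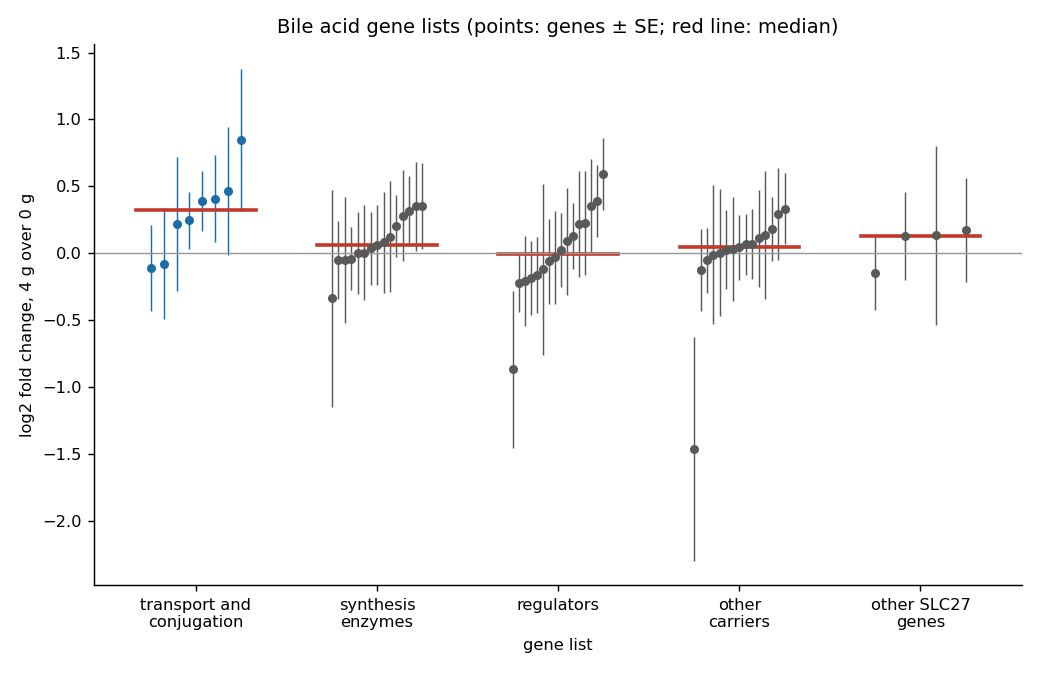
Log2 fold change (4 g over 0 g) of every tested gene in 5 lists, as points with their standard error, and the median of each list as a red line. The medians are 0.32 for the 8 transport and conjugation genes, 0.06 for synthesis enzymes, −0.00 for regulators, 0.04 for other carriers and 0.13 for other SLC27 genes.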

How the data were processed

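Liver RNA of 4 cattle at 4 g and 0 g was measured on 8 Agilent arrays of 1 slide and 1 scan. Per the file headers, spot intensity values were made with Agilent Feature Extraction 11.0.1.1 (9.5 in the submitters' processing notes) as processed signals, with spatial and multiplicative detrending on and local background correction off. The authors deposited a series table of log2 values, which correlated with the log2 processed signals at 1.00 on each array (median per column −3.04 to −2.84). It is centred near the 75th percentile, and single values differ by up to 0.268.

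Here log2 processed signal minus the 75th percentile of the array was used. Outlier spots (48) were left out, and spots of a probe averaged. Probes well above background on at least 4 arrays were tested (10985). limma 3.58.1 in R 4.3.3 fitted dose with the animal as a block, 2-sided, Benjamini-Hochberg at 0.05. A check on simulated data used chosen spreads within and between animals, not those of these arrays, so it does not measure the power here. The animal numbers in the titles set the pairs. Deviations from group means correlated at −0.19 to 0.21 within animals, at 0.62 between the 2 dimmest arrays and at 0.55 between animal 23 at 4 g and animal 24 at 0 g.

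Members, lists and alternatives were chosen with earlier results of these data known. Named genes were all members and a fixed set from each list, whatever their values. Outside this set, SLC10A5 was named because it has 2 probes. In the counts and medians, a list gene with several probes is given by its brightest. RefSeq names (ARS-UCD2.0) were found for 11683 of 15008 probes, and no listed gene was found by accession alone. The number of arrays limits the precision.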

Additional observations from a re-analysis of the deposited data

Results flagged for a closer look

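Among the named genes, 46 groups of 4 arrays were screened for a single array far from the rest, and 2 stood out, while chance alone marks about 1 in 20 groups. For CYP8B1 at 4 g, animal 19 lay at −2.17 and the other animals between −0.61 and −0.54, a gap of 0.955 of the whole range. This is one of the 2 dimmest arrays, and the part of brightness was not tested. For CYP27A1 at 0 g, animal 19 lay at 4.00 and the others between 3.82 and 3.83, a gap of 0.944 of a narrow range.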

How the results depend on the processing

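The median of the 8 genes kept its sign in 18 of 19 alternatives, some of which could not move it. It was −0.03 in animals 19 and 20 alone and up to 0.70 in animals 23 and 24 alone. Without the 0 g array of animal 23, in a fit with no pairing, it was 0.13. No probe passed for dose except 5 without the 2 dimmest arrays (LOC768255, IL20RA, GIMAP4, ULBP3 and GIMAP6, named after their values were seen, all among the 7 probes that divide the arrays of animals 23 and 24 by dose). Between animals 1 passed without animal 19 (REC8) and 1 in animals 19 and 20 alone (LOC768255). In the fit with no replicate block the median was again 0.32, because a block in a balanced design cannot change a mean difference. Fits with slide row as block, crossed pairs, no filter on dim probes, or intensity trend and robust variances could not move the median either. With no replicate block the count stayed at 0 and no call changed. Crossing the pairs of animals 23 and 24, which left each array in its dose group and so could not check the dose labels, also called 0 probes. Between animals, the crossed pairs gave 532 of 10985 probes an unadjusted p under 0.05 (limma F-test), against 298 with the labelled pairs. The cause of the reversals below was not tested. In animals 19 and 20 alone, ABCB11 was at −0.14, ABCC3 0.15, ABCC4 0.27, ABCG5 0.27, CYP7A1 0.23, FABP1 −0.0043, HNF4A −0.11, LOC530653 −0.31, SLC10A1 −0.38, SLC51B −0.36, SLCO1B3 −0.12 and SLCO2B1 −0.10. Median centring gave ABCG5 0.027 and CYP27A1 0.035. Without the 0 g array of animal 23, in a fit with no pairing, ABCG5 was 0.21, HNF4A −0.10 and NR1H4 −0.011. Normexp gave ABCG8 −0.069, CYP27A1 0.055, CYP8B1 0.040, FGFR4 −0.084, HNF4A −0.065 and SLCO2B1 −0.049. Array weights gave ABCG8 −0.12, CYP27A1 0.14 and CYP8B1 0.33. In animals 23 and 24 alone, chosen after seeing the data, ABCG8 was −0.31, CYP27A1 0.25 and CYP8B1 0.58. Without the 2 dimmest arrays, in a fit with no pairing, ABCG8 was −0.17, CYP27A1 0.25, CYP7A1 0.16, CYP8B1 0.29, FGFR4 −0.036 and NR1H4 −0.049. Leaving out each animal in turn gave ABCC3 −0.53 to 0.22, ABCC4 −2.53 to −0.74, ABCG5 −0.65 to 0.44, ABCG8 −0.39 to 0.32, CYP27A1 −0.15 to 0.31, CYP7A1 −1.03 to 0.74, CYP8B1 −0.33 to 0.56, FABP1 −0.057 to 0.24, FGFR4 −0.17 to 0.60, HNF4A −0.21 to 0.17, KLB −0.40 to 0.054, NR1H4 −0.037 to 0.23, SLC10A1 −0.064 to 0.87, SLC27A5 −0.41 to 0.16, SLC51A −0.12 to 0.80, SLCO1B3 −0.049 to 0.16 and SLCO2B1 −0.023 to 0.62. SLC27A2 and ABCC2 stayed above 0 in all 19 alternatives, most of which could not turn their sign. Changes of block, pairing or filter left both values as they were. Array weights and subsets of animals only average differences that were above 0 in every animal.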
